A study of Rattus norvegicus with 10 samples.

Results

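The 10 core circadian clock genes described here are Bmal1, Clock, Npas2, Per1, Per2, Per3, Cry1, Cry2, Nr1d1 and Nr1d2. They are 10 of 14217 genes named by the arrays and are read by 18 of 31042 probe sets. A probe set was taken where the platform annotation gives exactly 1 gene symbol and that symbol is on the list, and every such probe set was kept. Clock has 4 probe sets, Nr1d2 has 3, Per2, Per3 and Cry2 have 2 each, and Bmal1, Npas2, Per1, Cry1 and Nr1d1 have 1 each. The genes were chosen by name with earlier results on these same values in view. These were their level, their spread between animals, the order between activators and repressors and their difference between groups. Those values are therefore descriptions, and p-values among these genes lend them no independent support.

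Liver RNA was taken from Sprague-Dawley rats, all male and of an outbred stock. There were 5 rats exposed to effluent from bulk drug industries and 5 control rats, with 1 Affymetrix array per animal. The dose, the length of exposure, the age of the animals and the time of day at which livers were taken are not given in the sources used here. Values are RMA expression values on the log2 scale, so a difference of 1 is a doubling, and the number of arrays limits their precision.

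The mammalian clock is a feedback loop of transcription. BMAL1 pairs with CLOCK or with its relative NPAS2, and the pair binds E-box sequences and switches on the Per, Cry and Nr1d genes. PER and CRY proteins return to the nucleus and block the pair, while the nuclear receptors REV-ERB-alpha (Nr1d1) and REV-ERB-beta (Nr1d2) repress Bmal1, Clock, Npas2 and Cry1 through ROR response elements. In liver of animals kept in a light cycle, Bmal1 and Npas2 therefore peak far from Nr1d1, Nr1d2 and the clock-driven transcription factor gene Dbp, and meal times also set the phase.

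RefSeq promoter windows of assembly GRCr8, reaching 250 bases before a start and 50 after it, were held for 9 of the 10 genes, 11 windows in all. They were searched on both strands for the E-box CACGTG, the related CACGTT, the D-box TTATGTAA bound by DBP and its relatives, and the core TNGGTCA of the element bound by ROR and REV-ERB proteins. No motif overlapped another in these windows. The 5 windows with a match, from 4 genes, are shown because they hold strings that match these motifs, with matched bases in capitals.
Bmal1, chr1:176766078-176766377, plus strand: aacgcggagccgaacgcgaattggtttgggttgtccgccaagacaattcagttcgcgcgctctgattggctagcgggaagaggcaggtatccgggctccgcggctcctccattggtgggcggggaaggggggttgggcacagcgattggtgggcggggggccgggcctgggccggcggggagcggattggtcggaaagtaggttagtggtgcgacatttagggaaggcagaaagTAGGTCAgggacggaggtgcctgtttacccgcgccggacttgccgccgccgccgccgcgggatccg
Per2, chr9:99496944-99497243, minus strand: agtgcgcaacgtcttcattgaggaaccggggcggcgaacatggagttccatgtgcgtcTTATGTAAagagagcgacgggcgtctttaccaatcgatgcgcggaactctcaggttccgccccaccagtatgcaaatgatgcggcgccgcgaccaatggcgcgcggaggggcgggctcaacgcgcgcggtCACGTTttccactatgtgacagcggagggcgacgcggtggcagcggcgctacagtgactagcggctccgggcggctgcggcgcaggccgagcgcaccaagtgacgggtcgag
Cry2, chr3:98860388-98860687, minus strand: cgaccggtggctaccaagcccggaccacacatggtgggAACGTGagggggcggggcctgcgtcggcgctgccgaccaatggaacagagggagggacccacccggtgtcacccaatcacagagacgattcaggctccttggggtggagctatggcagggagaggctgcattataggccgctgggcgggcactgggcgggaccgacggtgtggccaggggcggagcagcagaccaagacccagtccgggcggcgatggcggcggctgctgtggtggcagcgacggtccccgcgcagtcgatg
Nr1d1, chr10:84231763-84232062, minus strand: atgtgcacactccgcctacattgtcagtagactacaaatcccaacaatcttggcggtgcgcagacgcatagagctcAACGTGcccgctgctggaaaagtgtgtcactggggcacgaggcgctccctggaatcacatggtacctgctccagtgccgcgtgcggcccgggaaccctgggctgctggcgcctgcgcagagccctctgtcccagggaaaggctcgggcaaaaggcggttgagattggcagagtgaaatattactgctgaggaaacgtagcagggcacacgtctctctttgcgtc
Nr1d1, chr10:84229405-84229704, minus strand: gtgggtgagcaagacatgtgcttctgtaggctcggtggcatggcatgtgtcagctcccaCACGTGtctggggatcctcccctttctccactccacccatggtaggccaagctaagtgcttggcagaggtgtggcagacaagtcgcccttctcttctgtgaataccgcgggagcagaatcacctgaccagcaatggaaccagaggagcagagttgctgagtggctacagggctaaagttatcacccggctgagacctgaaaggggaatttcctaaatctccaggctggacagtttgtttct
The Bmal1 window holds TAGGTCA 16 bases before the start. The Per2 window holds CACGTT 62 bases before the start and TTATGTAA 192 bases before it. The Cry2 window and the upper Nr1d1 window each hold CACGTT on the opposite strand, and the lower Nr1d1 window, a second start, holds CACGTG 191 bases before the start. Of all 33469 windows, 6.42% hold CACGTG, 4.83% CACGTT, 0.893% TTATGTAA and 11.1% TNGGTCA, so a match is a description of the sequence and does not show a bound site.

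The arrays carried a liver profile, with the 8 hepatocyte markers averaging between 9.63 and 14.99 per gene. Medians per array lay between 5.43 and 5.49. Control animal 1 stood apart from the other animals for several clock genes and is described first for that reason. On the brightest probe set of each gene, it held the most extreme value, highest or lowest, for 6 of the 10 genes: highest for Bmal1, Per3 and Cry1 and lowest for Cry2, Nr1d1 and Nr1d2. Exposed animal 5 was the most extreme for 4 genes on these probe sets, lowest for Bmal1, Clock and Npas2 and highest for Per2. On the other probe set of Per3, control animal 1 read 3.96, low within a range of 3.84 to 4.57. On that of Cry2 it read 6.94, and control animal 3 was the lowest at 6.80. The array median was 5.46 for control animal 1 and 5.49, the highest, for exposed animals 4 and 5.

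Bmal1, the activator without which the loop stops, read 7.49, 7.60, 7.08, 6.68 and 6.07 in exposed animals 1 to 5 and 8.08, 7.85, 7.72, 7.11 and 6.83 in control animals 1 to 5. Exposed animals 4 and 5 lay below every control and control animals 1, 2 and 3 lay above every exposed animal, with the remaining values interleaved. The mean was 6.99 ± 0.63 in exposed and 7.52 ± 0.53 in control livers (SD, n = 5 each). The range over all animals was 2.01 on the log2 scale, a 4.02-fold difference between exposed animal 5, the lowest, and control animal 1, the highest.

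Clock, the partner of Bmal1, was read by 4 probe sets. On the brightest, 1390199_at, exposed animals read 7.93, 7.96, 7.91, 7.51 and 7.36, against 7.88 to 8.01 in controls with a median of 7.98. The controls and exposed animals 1 to 3 were nearly level, and exposed animals 4 and 5 alone were low. The same 2 animals were the lowest on 1389456_at, at 6.81 and 6.50, and on 1380098_at, at 5.96 and 5.98. The dimmest, 1369168_a_at, did not follow the others: it correlated with them at -0.64, -0.41 and -0.67 across the 10 animals with group means removed, whereas the other 3 correlated with one another at 0.71 to 0.91.

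Npas2, which can stand in for Clock, read 6.83, 7.22, 6.89, 6.52 and 6.50 in exposed animals and 6.91, 6.68, 7.43, 7.05 and 6.83 in controls. Exposed animals 4 and 5 were again the lowest, and control animal 2 came next. Control animal 5 had a low Bmal1 value like these 2 exposed animals but the second highest Clock value of all.

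Among the repressors, the REV-ERB genes differed most between animals when control animal 1 was included; without it, their SDs of 0.29 and 0.27 were below the 0.34 of Cry1. Nr1d1 read 8.27, 8.19, 8.88, 8.61 and 8.43 in exposed animals and 6.50, 8.25, 8.15, 8.48 and 8.84 in controls. Apart from control animal 1, at 6.50, every animal lay between 8.15 and 8.88 and the groups interleaved. Nr1d2 on its brightest probe set, 1390430_at, read 9.06, 8.80, 9.27, 9.34 and 9.40 in exposed animals and 7.76, 8.88, 9.06, 9.27 and 9.57 in controls. Control animal 1 was again the lowest, and it was so on each of the 3 Nr1d2 probe sets, which correlated with one another at 0.88 to 0.99.

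Cry2 on its brighter probe set, 1372548_at, read 7.52, 7.24, 7.75, 7.48 and 7.66 in exposed animals and 7.01, 7.21, 7.43, 7.61 and 7.54 in controls. Control animal 1 was lowest here too, and the groups overlapped. The other Cry2 probe set, 1369446_at, spanned 6.93 to 7.22 in exposed and 6.80 to 7.11 in control animals and correlated with the first at 0.13. Cry1, the stronger repressor of the CRY pair and itself held down by REV-ERB proteins, read 6.62, 6.80, 7.25, 6.32 and 6.61 in exposed animals and 7.36, 6.83, 7.16, 7.19 and 6.46 in controls. Control animal 1 was the highest for Cry1, where it was the lowest for Cry2.

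Per1, which answers to glucocorticoids as well as to the clock, lay between 5.67 and 6.03 in exposed and between 5.58 and 5.90 in control animals. The 2 Per2 probe sets disagreed. The brighter, 1378560_at, spanned 6.99 to 7.17 in exposed and 6.81 to 7.14 in control animals. The other, 1368303_at, designed on the RefSeq transcript, read 5.90, 5.82, 6.17, 5.86 and 6.79 in exposed animals and 5.39, 5.52, 5.80, 6.27 and 5.92 in controls. Exposed animal 5 was the highest and control animal 1 the lowest on it, the reverse of their order for Bmal1. The correlation between both Per2 probe sets was 0.04. Which of them follows the Per2 transcript was not tested. Per3 was dim, with means over all animals of 4.41 and 4.10 on its probe sets against 5.47 for the median probe set, and the probe sets correlated at 0.30.

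**Figure D1:**
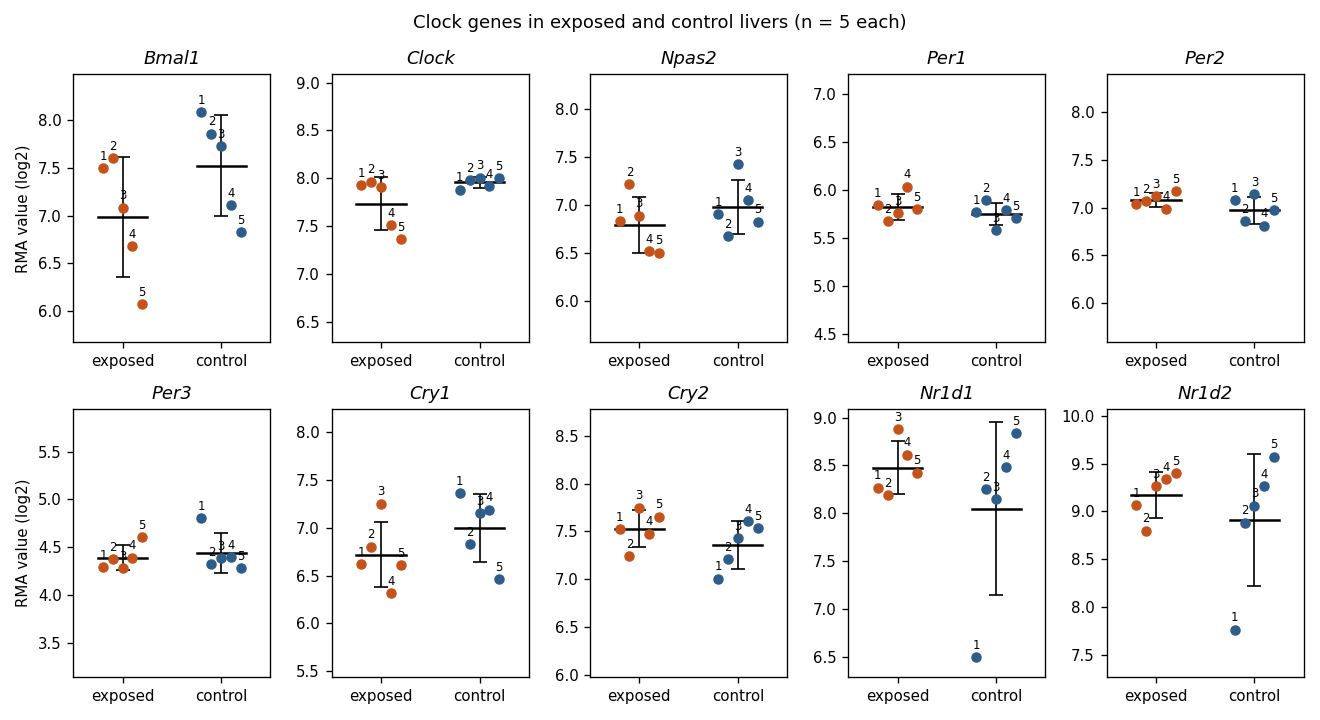
RMA value (log2) of each clock gene on its brightest probe set, with exposed animals on the left and control animals on the right of each panel; numbers name the animals, bars are the mean and whiskers the SD (n = 5 each), and all panels span the same log2 width. Control animal 1 lies far below the others for Nr1d1 (6.50) and Nr1d2 (7.76), and exposed animals 4 and 5 lie low for Clock (7.51 and 7.36).

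Spread was measured as the SD pooled within the groups. In order it was 0.67 for Nr1d1, 0.58 for Bmal1, 0.52 for Nr1d2, 0.35 for Cry1, 0.29 for Npas2, 0.22 for Cry2, 0.20 for Clock, 0.18 for Per3, 0.13 for Per1 and 0.11 for Per2, on the brightest probe set of each gene. The median over all probe sets was 0.13, and 0.944% of them had an SD of 0.5 or more, as had 3 of the 10 genes. Nr1d1 exceeded 99.6%, Bmal1 99.4% and Nr1d2 99.1% of all probe sets, while Per1 exceeded 48.1% and Per2 36.3%. Per2 on 1368303_at, with 0.38, would stand between Nr1d2 and Cry1. The order rested partly on control animal 1, without which the SD was 0.29 for Nr1d1, 0.27 for Nr1d2 and 0.10 for Per3, then the lowest of the 10, against a Bmal1 range of 0.48 to 0.62 over every animal left out, quantile normalization and the SD over all 10 animals. Nr1d1 and Nr1d2 thus have no settled place relative to Npas2 and Cry1. Absolute levels were not ranked between genes, because the brightness of a probe set depends on its probes as well as on its transcript.

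**Figure D2:**
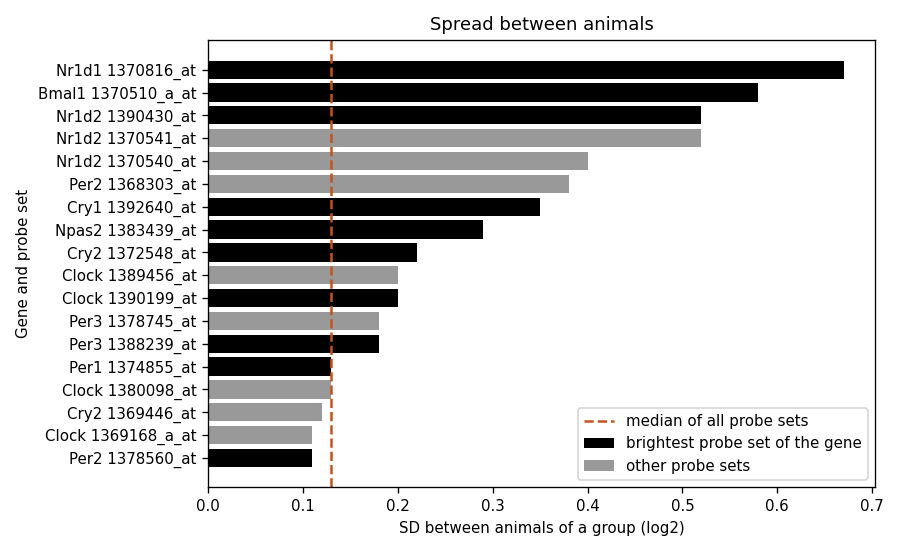
SD between animals of a group (log2) for each of the 18 clock probe sets, black for the brightest of a gene and grey for the others, with a dashed line at the median of all probe sets (0.13). Nr1d1, Bmal1 and Nr1d2 lead with 0.67, 0.58 and 0.52, and the Per2 probe sets differ (0.38 and 0.11).

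The comparison of exposed with control livers asks whether the effluent changed clock gene expression. No clock gene passed the test. All 3 activators had lower means in exposed livers, and so did Cry1, whereas Nr1d1, Nr1d2, Cry2, Per1 and Per2 had higher means. None of these differences was called. Bmal1 differed by -0.53 ± 0.30 (SE, exposed minus control, log2), or 0.691-fold with a 95% interval of 0.443 to 1.08. Clock differed by -0.22 ± 0.11 and Npas2 by -0.18 ± 0.15. Nr1d1 differed by 0.43 ± 0.34, or 1.35-fold (0.807 to 2.25), and Nr1d2 by 0.26 ± 0.27, or 1.20-fold (0.805 to 1.79).

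The other repressors differed by -0.28 ± 0.18 (Cry1), 0.17 ± 0.12 (Cry2), 0.07 ± 0.08 (Per1), 0.10 ± 0.07 (Per2) and -0.05 ± 0.10 (Per3). Per3 had a difference of 0.20 ± 0.10 on its other probe set and Per2 one of 0.33 ± 0.20, which were 0.10 and 0.16 without exposed animal 5. The 4 Clock probe sets all had lower means in exposed livers, by -0.22 to -0.12, and the 3 of Nr1d2 all had higher means, by 0.26 to 0.27. Single animals carried much of this. Without control animal 1 the difference was 0.04 for Nr1d1, -0.02 for Nr1d2, 0.08 for Cry2 and 0.04 for Per3. Without exposed animal 5 it was -0.30 for Bmal1 and -0.13 for Clock, without control animal 3 -0.07 for Npas2, without exposed animal 4 0.02 for Per1 and -0.18 for Cry1, and without control animal 4 0.06 for Per2. Without control animal 5 it was -0.41 for Cry1. Without exposed animal 2 it was -0.29 for Npas2 and 0.11 for Per1, and without exposed animal 5 -0.10 for Per3.

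By limma's test, adjusted by Benjamini-Hochberg across the whole array, 0 of the 18 clock probe sets were called, with adjusted p values of 0.879 to 0.963, and 0 of them had an unadjusted p under 0.05. Over all 31042 probe sets the call rate was 0.0%, and 5.46% had an unadjusted p under 0.05. The groups overlapped for all 18 clock probe sets, and did not overlap for 0.892% of all probe sets. Of the 18 differences, 10 were positive and 8 negative, with a median size of 0.21 against 0.06 over all probe sets, beside a median SD of 0.21 against 0.13. In bulk liver, fewer cells of a type and less RNA per cell cannot be told apart.

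**Figure D3:**
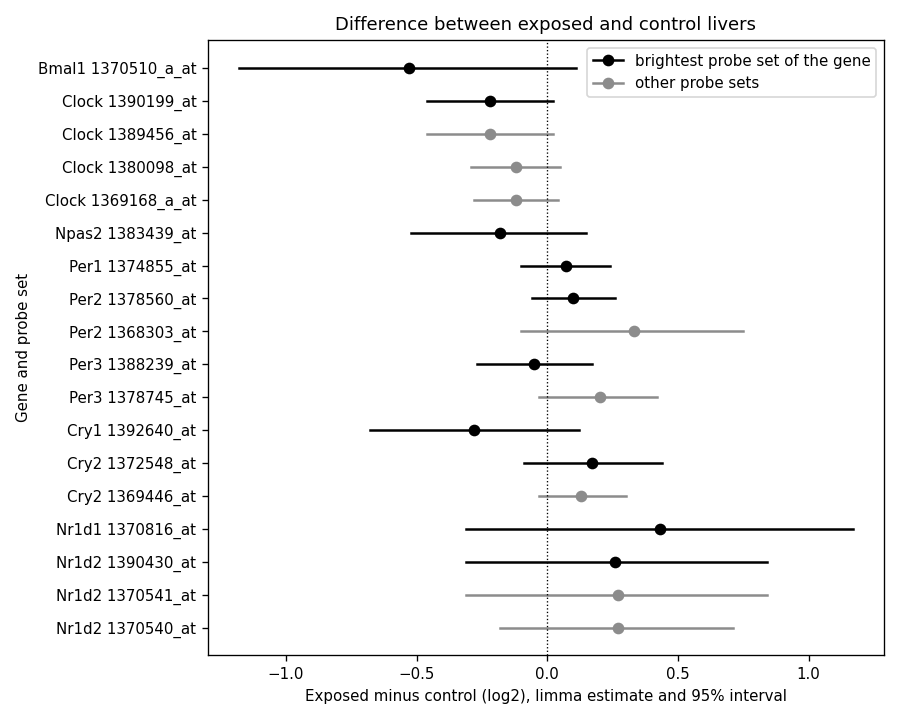
Exposed minus control difference (log2) with its 95% interval from limma for the 18 clock probe sets, black for the brightest of a gene. Every interval includes 0, from Bmal1 at -0.53 to Nr1d1 at 0.43.

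How the genes moved together from animal to animal was described by correlations over the 10 animals with group means removed, on the brightest probe sets. Of the 45 pairs, 3 passed a two-sided permutation test with Benjamini-Hochberg adjustment, all among the repressors. Nr1d1 and Nr1d2 varied together (r = 0.96, rho = 0.78, permutation p = 0.00029 for r and 0.0106 for rho, adjusted p = 0.013). Cry2, on 1372548_at, went with Nr1d2 (r = 0.84, rho = 0.78, permutation p = 0.00071 and 0.0106, adjusted p = 0.016) and with Nr1d1 (r = 0.78, rho = 0.76, permutation p = 0.00239 and 0.015, adjusted p = 0.0358). The other Cry2 probe set, 1369446_at, gave r = 0.26 with Nr1d2 and 0.13 with 1372548_at. All 3 calls rest on the most extreme animals. Without the 2 animals farthest from the median of the gene on the x axis, r was 0.72, 0.61 and 0.51, and 0 of the 45 pairs were called, as was also the case without control animal 1.

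Bmal1, the activator, and Nr1d2, a receptor that represses it, tended to deviate in opposite directions. Their Pearson correlation was -0.73 (permutation p = 0.00861, adjusted p = 0.0668) and did not pass, while their rank correlation was -0.94 (permutation p = 0.00021, adjusted p = 0.00945) and was the 1 pair of 45 to pass by rank. Without the 2 animals farthest from the median of Bmal1, r was -0.71 (permutation p = 0.0351, adjusted p = 0.574). Animals 4 and 5 had the lowest Bmal1 and the highest Dbp values of their group among both exposed and control animals. Same-numbered animals differed in Bmal1 by -0.76 to -0.25 (exposed minus control), within a range of 2.01 over all animals. With number means removed as well as group means, r of Bmal1 was only -0.14 with Nr1d2 and -0.13 with Nr1d1. The opposition therefore was not seen apart from the numbers. What the numbers stand for is not given in the sources used here, and whether they mark a shared day or hour of sampling was not tested. Bmal1 with Nr1d1 gave r = -0.56 and rho = -0.67, and Bmal1 with Cry2 gave r = -0.70 and rho = -0.76, with adjusted permutation p values of 0.286 and 0.175 for r. The activators had positive correlations with one another, 0.68 for Bmal1 with Clock, 0.49 for Bmal1 with Npas2 and 0.65 for Clock with Npas2, none of which passed.

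The arms of the loop did not oppose each other throughout. Of the 21 pairs of an activator with a repressor, 14 had a negative r and 7 a positive one, with a median of -0.12 and a range of -0.79 (Npas2 with Per1) to 0.51 (Npas2 with Cry1). Cry1 had positive correlations with all 3 activators, between 0.30 and 0.51. With the most variable probe set of each gene in place of the brightest, a choice made after seeing the data, 17 of these 21 pairs were negative. Then 7 pairs of 45 were called, among them Bmal1 with Per2 (r = -0.82, permutation adjusted p = 0.0449) and Bmal1 with Nr1d2 (r = -0.74, permutation adjusted p = 0.0487).

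**Figure D4:**
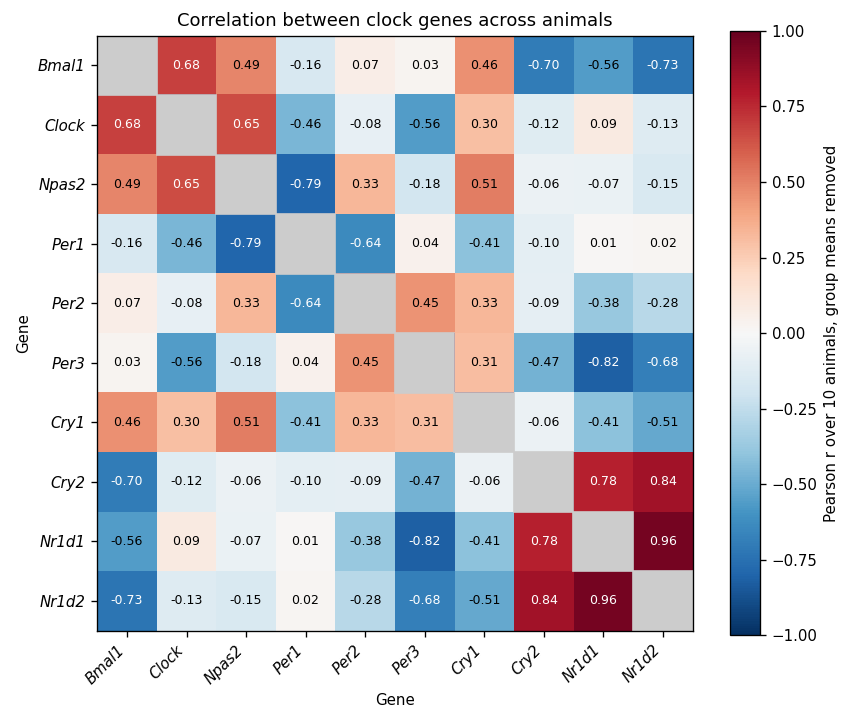
Pearson correlation between the clock genes over 10 animals with group means removed, on the brightest probe set of each gene. Nr1d1, Nr1d2 and Cry2 (on 1372548_at only) form a block of 0.78 to 0.96, and Bmal1 has -0.70, -0.56 and -0.73 with Cry2, Nr1d1 and Nr1d2.

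Other values from the same arrays were set beside Bmal1 and Nr1d2 in the same way, 12 relations in all with adjustment over the 12. Dbp, a direct target of BMAL1 and CLOCK, read 7.28, 6.79, 8.65, 8.80 and 9.47 in exposed and 5.80, 6.50, 6.97, 8.67 and 9.34 in control animals. It opposed Bmal1 (r = -0.95, rho = -0.96, permutation p = 7e-05 and 0.00011, adjusted p = 0.00042) and went with Nr1d2 (r = 0.84, rho = 0.96, permutation p = 3e-05 and 2e-05, adjusted p = 0.00036), with r of -0.96 and 0.88 without the 2 farthest animals. In both groups Bmal1 fell and Dbp rose with the animal number, apart from exposed animals 1 and 2. The permutation test takes the animals as exchangeable, and whether these relations hold with number means removed was not tested for Dbp. The gene lists, Dbp included, were chosen with earlier results on these values in view. These p-values therefore lend no independent support. The mean of the hepatocyte markers, 13.30 to 13.50 in exposed and 13.34 to 13.56 in control animals, went with Nr1d2 (r = 0.73, rho = 0.71, permutation p = 0.0113 and 0.027, adjusted p = 0.0452; 0.68 without the 2 farthest animals). Its members were not alike. Hnf4a and Tat, with SDs of 0.26 and 0.35 against a list median of 0.06, gave r of 0.67 and 0.57 with Nr1d2, and Fgb gave 0.0. The median r of the single markers with Bmal1 was -0.16.

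The remaining relations did not pass. The hepatocyte marker mean gave r = -0.60 with Bmal1 (rho = -0.72, permutation p = 0.0685 and 0.0235, adjusted p = 0.137; -0.67 without the 2 farthest animals). The 3' to 5' ratio of control probe sets, taken on the log2 scale as a sign of RNA quality, gave r = 0.68 with Nr1d2 (rho = 0.38, permutation p = 0.0397 and 0.28, adjusted p = 0.119). Control animal 5 had both the highest ratio, 0.73 on the log2 scale, and the highest Nr1d2 value. Control animal 1 had the lowest ratio of the controls, 0.51, and the lowest Nr1d2 value of all. Without the 2 farthest animals r was -0.26. With Bmal1 the ratio gave r = -0.28 (rho = -0.16, permutation p = 0.44 and 0.658). Of the markers of other cells, 6 of 8 for Kupffer cells and macrophages were measured (mean 8.15 to 9.11 in exposed and 7.81 to 9.07 in control animals), 8 of 9 for lymphocytes (4.80 to 5.16 in exposed and 4.79 to 5.09 in control animals) and 11 of 12 for stellate, endothelial and bile duct cells (7.55 to 7.79 in exposed and 7.49 to 7.82 in control animals). Their correlations with both clock genes lay between -0.64 and 0.46, with adjusted permutation p values of 0.120 to 0.745. With the RNA quality ratio as a covariate in limma, exposed minus control was 0.81 ± 0.26 (SE) for Nr1d1, 0.53 ± 0.22 for Nr1d2, -0.15 ± 0.08 for Per3 and -0.66 ± 0.32 for Bmal1, with adjusted p values of 0.940 to 0.942 for these 4 genes. None of the 10 genes was called in that fit. The part of cell makeup in the clock differences was not tested.

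**Figure D5:**
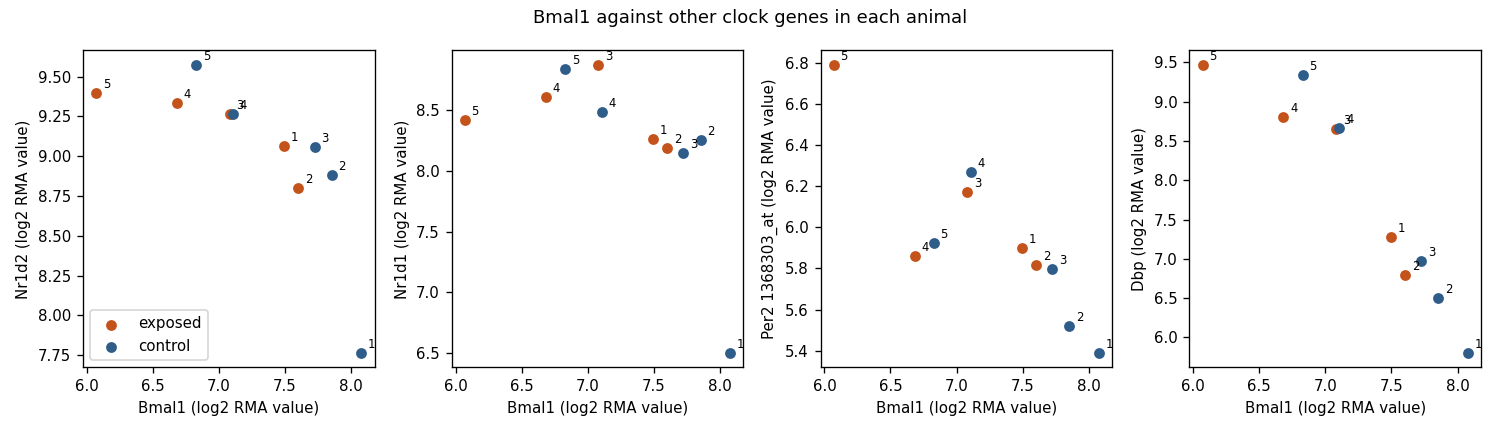
Bmal1 (x axis) against Nr1d2, Nr1d1, Per2 on 1368303_at and Dbp (y axes) in each animal, as log2 RMA values, with numbers naming the animals. Control animal 1 has the highest Bmal1 value (8.08) and the lowest value in each of the 4 panels, 7.76, 6.50, 5.39 and 5.80 from left to right.

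Other genes of the clock and its outputs were taken from a list of 28, of which 23 were measured. Of these, 9 had higher and 14 lower means in exposed livers, with a median difference of -0.03, and 0 passed limma's test in either direction. Rora, the activator that competes with REV-ERB proteins for the same element, had the smallest p, with 6.75 ± 0.30 in exposed and 7.09 ± 0.29 in control livers (SD, n = 5 each; limma adjusted p = 0.879). Nampt, which makes NAD from nicotinamide, differed by -0.36 ± 0.18 (SE) and the dim Rorb by 0.14 ± 0.07. Dbp differed by 0.75 ± 0.67, its relative Tef by -0.06 ± 0.11, and Nfil3, which represses through the same D-box, by -0.35 ± 0.28. Bhlhe40 and Bhlhe41, repressors that compete for E-boxes, differed by 0.43 ± 0.48 and 0.09 ± 0.08.

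As descriptions over the 10 animals with group means removed, r with Bmal1 was 0.81 for Rora, 0.65 for Nfil3, -0.85 for Tef and -0.66 for Bhlhe40. Nfil3, a gene repressed by REV-ERB proteins, gave -0.86 with Nr1d2, and Tef gave 0.82. Nfil3 was highest in control animal 1, at 9.26, where the REV-ERB genes were lowest, and whether its r holds without that animal was not tested.

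The genes most like each of Bmal1, Per2 and Nr1d1 were sought among 9657 genes outside the 10 whose brightest probe set was above the median level, by Pearson r over the 10 animals with group means removed. For Bmal1 the highest were Tmem140, Tcim and Lgalsl, each at 0.94, and the lowest were Wdr33 and Dbp at -0.95 and Mid1ip1, a regulator of fatty acid synthesis, at -0.94. Lgalsl ranged between 7.57 and 8.85 in exposed and between 7.71 and 8.98 in control animals, and Mid1ip1 between 9.08 and 10.72 in exposed and between 8.84 and 9.75 in control animals. For Nr1d1 the highest were Txlng, Arfgap1 and Mtf1, each at 0.95, and the lowest Mrpl55 at -0.99, Tubb6 at -0.96 and Atp6v1g1 at -0.95. Without the 2 animals farthest from the median of Nr1d1 these were 0.77 to 0.87 and -0.90 to -0.80.

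For Per2 on its brightest probe set the highest were Rnaseh2a at 0.97 and Icam5 and Ebpl at 0.93, and the lowest Spast and Zfp771 at -0.90 and Sars1 at -0.89. This Per2 probe set varied little, with an SD of 0.11, and correlated with the other Per2 probe set at 0.04. Correlations of 0.8 or more in size were held by 2.85% of the candidates with Bmal1, 5.52% with Nr1d1 and 1.22% with Per2. What share chance would give was not tested. The genes named are the most extreme of 9657 candidates, so a high r alone does not link them to Per2.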

How the data were processed

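The authors deposited log2 expression values per probe set, which the submitters' processing notes credit to RMA and R 2.8.1. Because RMA quantile-normalizes, a change common to most genes would not show, and dim probe sets understate differences. Values ran between 2.19 and 15.0, which fits a log2 scale. From 31099 probe sets, 57 control sets were left out. Names came from the platform annotation, updated by Entrez number through RefSeq (20758 of 20826 found, 0 symbols changed).

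Groups were compared with limma 3.58.1 in R 4.3.3 (lmFit, eBayes, two-sided), adjusted over all 31042 probe sets at 0.05. Correlations used 100000 permutations of the animals' values after group means were removed, with every order where 8 animals were left. Values with a group mean removed are not fully independent, so these permutation p-values are somewhat too small. The gene lists and members were chosen with earlier results of these data known. P-values among members, or of members with listed genes such as Dbp, therefore lend them no independent support. Genes named are the members, up to 3 of each list by smallest p, 8 fixed clock genes where measured, and 3 each way by likeness to Bmal1, Per2 and Nr1d1. The scripts were tested on simulated data. Python 3.11.15, numpy 2.4.6 and scipy 1.17.1 were used. The alternatives were centring, quantile normalization, a low-value filter, the replicate number as a block, array weights, another prior, RNA quality, other probe set choices and leaving out each animal. Same-numbered animals of the groups deviated from their group means with correlations of -0.07 to 0.094 across probe sets, so numbers were not taken to pair animals. That check covers all probe sets together, whereas Bmal1 and Dbp values largely followed the number in both groups.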

Additional observations from a re-analysis of the deposited data

Results flagged for a closer look

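In 1 of 36 groups of clock probe set values, a single animal stood far from the rest of its group, where about 1 in 20 is given by chance. Control animal 1 read 4.81 for Per3 on 1388239_at, against 4.28 to 4.40 in the other controls. On the other Per3 probe set, 1378745_at, it read 3.96, within the 3.84 to 4.13 of the other controls. The same animal's Nr1d1 value of 6.50 narrowly missed the criterion, with a gap of 0.705 of the control range.

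Among the other named genes this occurred in 3 of 58 groups. Exposed animal 2 read 7.73 for the cold-inducible RNA-binding protein gene Rbm3 (others 7.87 to 7.93), exposed animal 3 read 10.11 for the Kupffer cell lectin gene Clec4f (10.81 to 10.95), and exposed animal 1 read 4.52 for the T cell gene Cd3d (4.73 to 4.81).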

How the results depend on the processing

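No clock probe set was called under any alternative, and the low-value filter left no value for Per3. Over all probe sets the count of 0 became 1 without exposed animal 1 (leave-one-out 0 to 1). Of 184 differences of single clock genes under alternatives, 4 changed sign: Per3 at 0.04 without control animal 1, 0.07 as the mean of its probe sets and 0.20 on its dimmer one, and Nr1d2 at -0.02 without control animal 1. With 1 animal left out, Per3 ranged from -0.10 to 0.04 and Nr1d2 from -0.02 to 0.43. The 3 pairs called became 7 with the most variable probe sets, 1 by Spearman, 0 without the 2 farthest animals and 0 to 8 with 1 animal left out (8 without exposed animal 5, 0 without control animal 1, 1 without exposed animal 2). The pair called by Spearman, Bmal1 with Nr1d2, was not among the 3. With the replicate block 11 pairs were called and r of Bmal1 was -0.14 with Nr1d2, -0.13 with Nr1d1 and -0.47 with Cry2, against -0.73, -0.56 and -0.70 without it, but removing group and number means leaves 4 independent values per gene, so those permutation p-values are too small. In the limma fit with the replicate block, Bmal1 differed by -0.53 ± 0.08 (SE; unadjusted p 0.000152, adjusted p = 0.894) and was lower in the exposed animal of 5 of 5 numbers, and no call changed. No animal correlated best with its own number (0 of 10).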

Other observations

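Genes that answer to other signals reaching the liver clock were also read, and 0 of them passed limma's test over all probe sets. Of 13 measured glucocorticoid-responsive genes, 7 had higher and 6 lower means in exposed livers (median difference 0.07). Fkbp5, which restrains the glucocorticoid receptor, averaged 7.22 ± 0.20 in exposed and 7.47 ± 0.16 in control livers (SD, n = 5 each; limma adjusted p = 0.879). Dusp1, a phosphatase of stress kinases, differed by 0.52 ± 0.26 (SE) and Errfi1, a brake on the EGF receptor, by 0.41 ± 0.22. Errfi1 was lowest in control animal 1, at 11.31, as were Nr1d1 and Nr1d2, and its r with Nr1d2 was 0.87 over the 10 animals with group means removed.

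Of 11 measured feeding and fasting genes, 5 were higher and 6 lower (median -0.04), with Sds, which degrades serine, at -0.55 ± 0.19 (SE), the fatty acid synthase gene Fasn at 0.31 ± 0.16 and the coactivator Ppargc1a at 0.16 ± 0.10. Of 6 measured temperature-responsive genes, 2 were higher and 4 lower (median -0.08), with the chaperones Hspb1 at -0.49 ± 0.16 and Hsph1 at -0.35 ± 0.13, and Rbm3 at 0.19 ± 0.09. Limma gave unadjusted p values under 0.05 for 1, 1 and 3 genes of these lists, against 5.46% of all probe sets. Among marker genes of cells, none passed. Of the markers measured, 6 of 6 for macrophages were higher in exposed livers (median 0.21), as were 7 of 8 for lymphocytes (median 0.12, 1 with an unadjusted p under 0.05 by limma), 2 of 8 for hepatocytes (median -0.01) and 6 of 11 for stellate, endothelial and bile duct cells (median 0.02). Of all 31042 probe sets, 16130 were higher. Only 1 of the 8 lymphocyte markers was above the level of the median probe set, so most were dim. By gene, Hnf4a differed by -0.17 ± 0.14, Tat by -0.14 ± 0.18 and Fgb by -0.04 ± 0.05 (hepatocytes), Aif1 by 0.34 ± 0.26, Cd5l by 0.36 ± 0.29 and Clec4f by 0.22 ± 0.21 (macrophages), Cd3d by 0.20 ± 0.09, Cd52 by 0.29 ± 0.16 and Nkg7 by 0.14 ± 0.10 (lymphocytes), and Des by 0.16 ± 0.08, Pecam1 by -0.09 ± 0.09 and Krt19 by -0.09 ± 0.16 (other cells).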
